A study of Homo sapiens with 4 samples.

Results

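TXNIP, its arrestin-domain relatives ARRDC1, ARRDC2, ARRDC3 and ARRDC4, the thioredoxins TXN and TXN2, and the glucose-sensing transcription factor gene MLXIP were followed in MCF10A cells whose CBL and CBLB transcripts were targeted by short hairpin RNAs. These 8 genes are a small share of the 19775 genes that had a probe set naming only that gene. They were chosen by gene symbol, around the low TXNIP intensity on the arrays labelled double knockdown, so the same contrast had already picked TXNIP. The values of all 8 genes are therefore given as a description, with no p-value, and the count of those past the threshold of the array-wide fit is printed only beside the share of all genes. MCF10A is an immortalised human mammary epithelial cell line that does not form tumours. Total RNA was taken from cells in DFCI-1 medium under ordinary growth and hybridised to Affymetrix U133 Plus 2.0 arrays. One group (n = 2 arrays) is labelled control, with no word on whether it carried a hairpin, and the double knockdown group (n = 2 arrays) carried hairpins against Cbl and Cbl-b. Whether the cells were clones or pools, and whether 2 arrays of 1 group stand for 2 cultures, is not in the labels. Errors and p-values below measure only the spread between arrays, which may be technical. The SEs and limma p-values are moderated, which means that the variance of each gene is drawn toward that of all genes.

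The array medians lay between 14.5 and 14.7 intensity units and the 95th percentiles between 646 and 664. The number of arrays limited the precision. CBL was lower on the knockdown arrays (log2 change -1.37 ± 0.15 SE, adjusted p = 0.00138 by limma) and CBLB was higher (0.45 ± 0.09 SE, adjusted p = 0.0148, and up to 0.143 when either knockdown array was left out). With the mean of all probe sets of a gene, CBL was at -0.41 and CBLB at 0.28, and CBL was at -0.84 with a constant of 64 added to the intensities in place of 16. Because the CBLB readings oppose the label, the group is called "labelled double knockdown", and every direction given is for the arrays so labelled. All 6 epithelial markers with a probe set of their own were above the brightness minimum of 14.6, the median of all probe sets. Their summed intensity was 28078 and 28225 on the control arrays and 16887 to 17146 on the labelled double knockdown arrays. By limma, KRT14 (log2 change -1.62, means of 13818 and 4488) and KRT5 (-0.73, means of 8056 and 4848) fell. KRT18 (0.53) and EPCAM (0.40) rose, while CDH1 (0.01) and ITGB4 (-0.37) were not called. The lower sum thus lay mainly in KRT14 and KRT5 and was not shared by all 6 markers. Of the leukocyte markers, PTPRC and LYZ lay below the minimum, CD3E (means of 18.3 and 18.9) and ITGAM (22.0 and 22.5) lay above it, and the 4 measured summed to 49.3 to 53.2 on control arrays against 49.3 to 53.1. Of 8 fibroblast and endothelial markers, 3 were above it, COL1A1 (143 and 131), COL1A2 (18.0 and 14.6) and PECAM1 (36.0 and 31.3), and CDH5, VWF, PDGFRA, PDGFRB and COL3A1 were below it. The summed level of the 8 was 239.7 to 245 against 211 to 233. The part of these mixed marker changes in the results below was not tested. In bulk RNA, fewer cells of a type and less RNA per cell cannot be told apart.

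As background, thioredoxins are small proteins that reduce disulfide bonds in other proteins through a pair of reactive cysteines, and are themselves reduced again by thioredoxin reductases. TXNIP binds reduced thioredoxin and blocks it, and it also limits glucose uptake by promoting internalisation of glucose transporters. It belongs to the alpha-arrestins, which carry arrestin folds and PPxY motifs that recruit ubiquitin ligases of the NEDD4 type to membrane cargo. TXNIP and ARRDC4 are known as glucose-responsive targets of MondoA, the protein encoded by MLXIP, which works with its partner MLX.

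TXNIP, the thioredoxin inhibitor, was lower on all of its 3 probe sets. On the brightest the control arrays read 4958 and 4444 and the labelled double knockdown arrays 1539 and 1593. Both knockdown readings lay far below both control readings, and they differed from each other less than the control readings did. The means were 4701 ± 363 (SD, n = 2) and 1566 ± 38.2 (n = 2), so 33.3% of the control intensity was left.

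The other TXNIP probe sets gave larger differences. On the second in brightness the control arrays read 1639 and 1378 and the knockdown arrays 379.7 and 372, with means of 1509 ± 184 and 376 ± 5.16. On the dimmest they read 885 and 795 against 184.6 and 184.5, with means of 839.7 ± 63.5 and 184.5 ± 0.0284. On each of the 3 probe sets the groups did not overlap, as was so for 57.5% of all genes on their brightest probe set. On the second probe set 24.9% of the control intensity was left and on the dimmest 22.0%. On the log2(intensity + 16) scale, which damps the noise of dim values, the log2 changes from the brightest to the dimmest were -1.57 ± 0.09 (SE), -1.95 ± 0.10 and -2.09 ± 0.09. Names ending in _s_at mark probe sets that can match several transcripts, and all 3 TXNIP probe sets are of that kind. The direction was shared by all of them, whereas the size was not settled more closely than this range.

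ARRDC4, an alpha-arrestin close to TXNIP in sequence and reported to limit glucose uptake as well, stood beside it. Its 1 probe set read 134 and 124 on the control arrays and 40.4 and 36.0 on the knockdown arrays. The groups were well apart, with means of 129 ± 7.12 (SD, n = 2) and 38.2 ± 3.14 (n = 2), a ratio of 3.38. The log2 change was -1.42 ± 0.09 (SE) with the constant of 16, -1.73 with a constant of 1 and -0.92 with 64, because the knockdown readings are dim enough for the constant to weigh. With the constant of 16, the 12965 genes tested were ordered by log2 change from the most negative. TXNIP held place 8 on its brightest probe set and ARRDC4 place 14. TXNIP had been picked from this contrast, so nothing is read from this order.

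**Figure D1:**
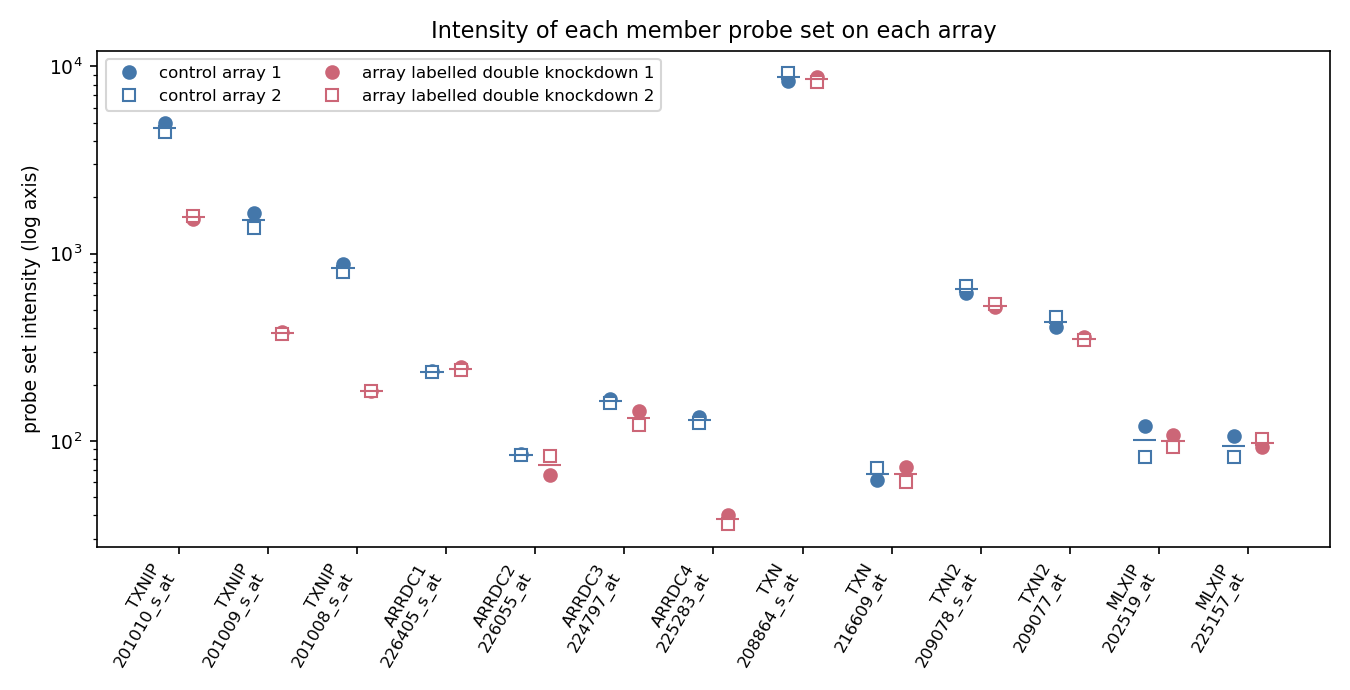
Intensity (log axis) of the 13 member probe sets above the brightness minimum. Filled circles are array 1 and open squares array 2 of each group, blue for control and red for labelled double knockdown, and short lines are group means (n = 2). The groups are widely separated for the 3 TXNIP probe sets and ARRDC4, and close or overlapping for the others.

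The stretches upstream of TXNIP and ARRDC4 are shown because these 2 members had the low readings and are the known MondoA targets of the group. Sequences are from RefSeq, build GRCh38.p14, where 7 of the 8 genes were matched, with 10 annotated starts. TXN2 was not matched. Each line holds the 250 bases that end just before an annotated start, 5′ to 3′ on the strand of the gene. Capitals mark CACGNG half-sites paired at a spacing of 5 bases (the form of a carbohydrate response element), the E-box CACGTG, the box CCAAT and the forkhead-type motif GTAAACA, on either strand. The TXNIP window is chr1:145996580-145996829 on the minus strand, from its outer start (a second annotated start lies further in), and the ARRDC4 window is chr15:97960453-97960702 on the plus strand.
TXNIP: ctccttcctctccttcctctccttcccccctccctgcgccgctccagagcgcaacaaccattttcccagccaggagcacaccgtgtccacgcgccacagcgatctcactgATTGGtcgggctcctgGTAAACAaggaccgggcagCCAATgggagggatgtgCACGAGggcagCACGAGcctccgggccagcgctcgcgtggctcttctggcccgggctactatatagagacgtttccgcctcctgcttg
ARRDC4: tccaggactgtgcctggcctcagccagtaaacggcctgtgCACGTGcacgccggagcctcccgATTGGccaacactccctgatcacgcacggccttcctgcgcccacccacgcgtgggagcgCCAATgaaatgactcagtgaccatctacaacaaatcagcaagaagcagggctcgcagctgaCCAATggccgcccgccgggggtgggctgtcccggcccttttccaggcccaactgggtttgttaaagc

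The TXNIP window held the paired half-sites once, from 88 to 72 bases before the start. Such a pair, in the same orientation, occurs in 16 of 35116 upstream windows of this length (0.0456%), and in no other of the 10 windows. Pairs in opposite orientation were not counted, so the share of all such elements is not given. The ARRDC4 window held the E-box CACGTG, 210 to 205 bases before its start, a motif found in 6.34% of windows and itself 1 form of the half-site. CCAAT or its reverse was present 2 times upstream of TXNIP and 3 times upstream of ARRDC4. It also lay once upstream of ARRDC1, MLXIP, 1 ARRDC2 start and 1 ARRDC3 start, and in 32.0% of all windows. GTAAACA, present in 2.98% of windows, lay upstream of the printed TXNIP start and of 1 ARRDC3 start. An antioxidant-type motif, TGACNNNGC (10.9% of windows), lay upstream of 1 ARRDC2 start. The amino acid response-type motif TGATGNAA (3.14% of windows) was in none of the 10 windows. The window of the inner TXNIP start, which is not printed, held no match of any of these motifs. No matches of different motifs overlapped. These are letter matches and say nothing of which factors were bound.

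**Figure D2:**
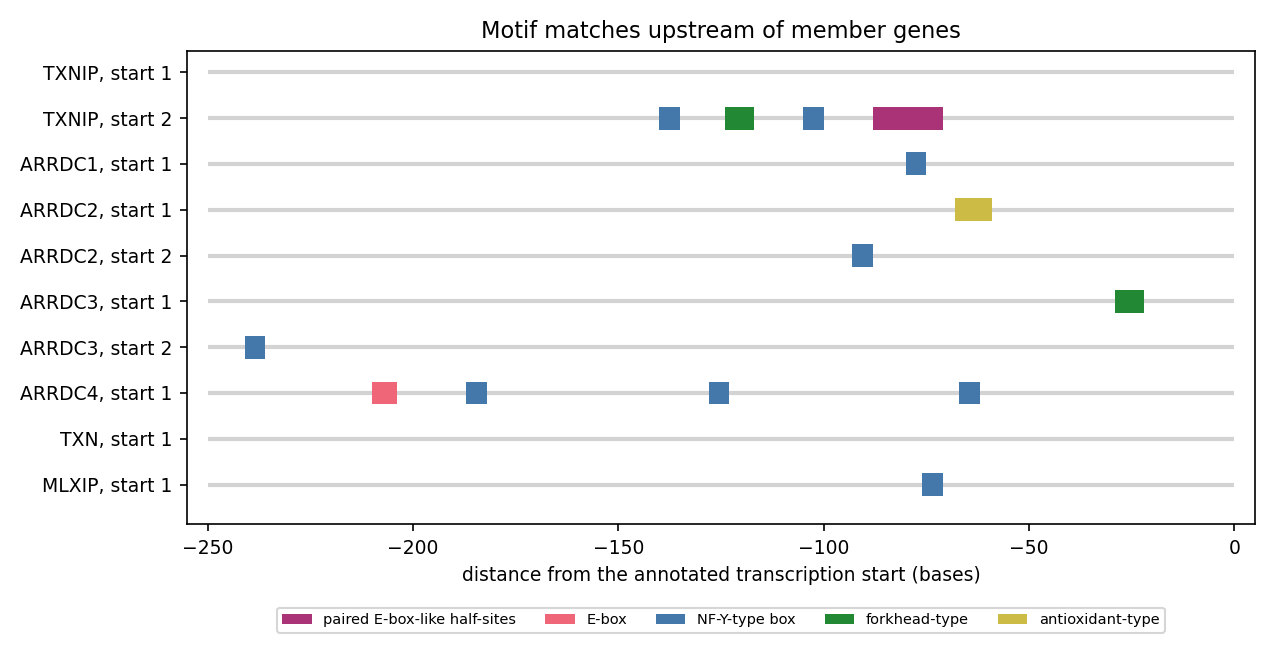
Positions of motif matches in the 10 upstream windows of 7 member genes, in bases before the annotated transcription start. Coloured blocks are matches on either strand, and NF-Y-type marks CCAAT. TXNIP start 2 is the window printed in the text. Among these windows, half-sites paired in the same orientation occur only there, and the E-box only upstream of ARRDC4.

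The other ARRDC genes, adaptors that link membrane proteins to ubiquitin ligases, had small differences. ARRDC3, an adaptor described for the beta-2 adrenergic receptor and integrin beta-4, read 167 and 159 on the control arrays and 144 and 122 on the knockdown arrays (log2 change -0.27 ± 0.10 SE). Both knockdown readings were lower, but they differed from each other by more than the control pair did. Leaving out either knockdown array put the log2 change of ARRDC3 between -0.38 and -0.16.

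ARRDC2 read 85.1 and 84.0 against 65.6 and 82.8 (log2 change -0.16 ± 0.11 SE). The second knockdown array was nearly level with the control. The log2 change of ARRDC2 was -0.03 without labelled double knockdown replicate 1 and -0.30 without replicate 2. ARRDC1, which drives the budding of small vesicles from the plasma membrane, read 236 and 233 against 248 and 239 (log2 change 0.05 ± 0.08 SE). Its second probe set, between 6.34 and 8.01 on the 4 arrays, was below the brightness minimum.

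TXN, the cytosolic thioredoxin that TXNIP inhibits, had overlapping groups on both of its probe sets. The brighter one read 8307 and 9186 on the control arrays, against 8812 and 8231. The means were 8746 ± 621 (SD, n = 2) and 8521 ± 411 (n = 2), with a log2 change of -0.04 ± 0.09 SE. The dimmer one read 61.6 and 71.4 against 72.8 and 60.7, with a log2 change of 0.0027 ± 0.11 SE. Within each group the 2 arrays of TXN differed more than the group means did.

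TXN2, the mitochondrial thioredoxin, had groups that did not overlap on either probe set. The same held for 57.5% of all genes tested, each on its brightest probe set. On the brighter one the control arrays read 615 and 676 and the knockdown arrays 516 and 540.3. On the dimmer one they read 403 and 459 against 358 and 344. The log2 change was -0.28 ± 0.09 SE on the first and -0.28 ± 0.10 SE on the second, a shift of about the size of that of ARRDC3.

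MLXIP, which encodes MondoA, had overlapping groups. On its brightest probe set it read 121 and 81.7 on the control arrays and 107 and 93.0 on the knockdown arrays (log2 change 0.0022 ± 0.16 SE). On the second it read 106 and 82.1 against 92.6 and 102.6 (0.05 ± 0.12 SE). The control arrays were the highest and the lowest of the 4 on both, and the log2 change of MLXIP on its brightest probe set was 0.24 without control replicate 1 and -0.24 without control replicate 2. Its remaining 2 probe sets lay below the brightness minimum, between 5.56 and 11.02.

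**Figure D3:**
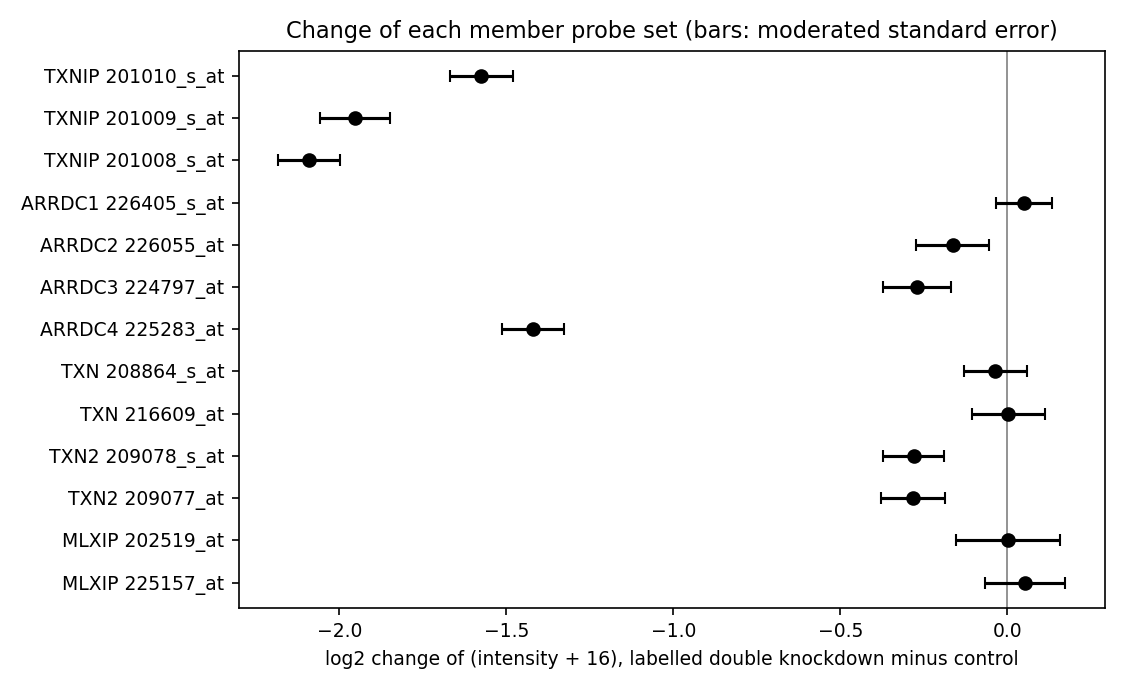
Log2 change of intensity + 16, labelled double knockdown minus control, for the 13 member probe sets above the brightness minimum (bars: moderated SE from limma). The 3 TXNIP probe sets lie between -2.09 and -1.57 and ARRDC4 at -1.42, while the other 9 lie between -0.28 and 0.05.

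In all, 13 of the 16 member probe sets were above the brightness minimum, at least 1 for each of the 8 genes. In the limma fit across 12965 genes, each on its brightest probe set, 2 of 8 members lay past the threshold (an adjusted p under 0.05) on the lower side, TXNIP and ARRDC4, against 6.59% of all genes. None lay past it on the higher side, against 9.40% of all genes. Across 22945 probe sets, 4 of the 13 lay past it, against 13.7% of all. For 6 of the 8 genes the groups did not overlap on the brightest probe set, 5 lower and 1 higher, against 57.5% of all genes in either direction. The median log2 change was -0.22 over the 8 members and -0.0086 over all genes tested. TXNIP had been picked from this contrast, so nothing is read from these counts. No sample-level permutation could help, since 2 against 2 arrays cannot give an exact two-sided p under 0.333.

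The genes whose readings over the 4 arrays were most like those of TXNIP were found by Euclidean distance on log2(intensity + 16), each gene centred on its own mean. The nearest 5 of the genes tested were TFCP2L1 (distance 0.12 log2 units), FLRT3 (0.17), FGFBP1 (0.18), KRT16 (0.19) and VIM (0.20). TFCP2L1, a transcription factor gene, read 190 and 189 on the control arrays and 54.5 and 57.2 on the knockdown arrays. VIM encodes the intermediate filament vimentin, KRT16 a keratin and FGFBP1 a carrier of fibroblast growth factors. ARRDC4 came in place 6 with a distance of 0.20. After centring, this distance mostly reflects the difference between the groups, for which TXNIP had been picked. It was taken on the brightest TXNIP probe set and with the constant of 16 only. Nothing is therefore read from these places.

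The other genes of these pathways were taken from 9 lists drawn up by function, with earlier results of these data known. Of 107 listed genes 98 had a probe set of their own and 90 were tested. Of these 12 were called higher (13.3%, against 9.40% of all genes) and 6 lower (6.67%, against 6.59%). Their median log2 change was 0.0081, against -0.0086 over all genes tested. No list was compared with other genes by a test. The counts of each list below stand beside the same shares, 9.40% higher and 6.59% lower of all genes. Nothing is read from them. Every adjusted p below is from limma over all 12965 genes. Leaving out an array leaves 1 array in its group, which is then assumed to vary like the pair of the other group. Calls kept or lost that way rest on the spread of that pair and on the variance that limma borrows across genes. Each such fit called fewer genes across the array than the full fit, so a lost call need not mean a smaller change.

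Of 12 genes of the thioredoxin cycle, 1 rose and 2 fell. TXNRD1, the cytosolic thioredoxin reductase, rose from 875 ± 43.0 (SD, n = 2) to 1179 ± 48.3 (log2 change 0.42 ± 0.09 SE, adjusted p = 0.0182). MSRA, which repairs oxidised methionine with electrons from thioredoxin, fell from 339.6 ± 47.8 to 234 ± 7.19 (log2 change -0.50 ± 0.11 SE, adjusted p = 0.0207). PRDX4, the peroxiredoxin of the endoplasmic reticulum, fell from 2466 ± 47.2 to 1989 ± 17.4 (log2 change -0.31 ± 0.08 SE, adjusted p = 0.0439). The call of TXNRD1 was lost without control replicate 1 (adjusted p = 0.0579), labelled double knockdown replicate 1 (0.153) or replicate 2 (0.111), and that of MSRA without the same arrays (0.0585, 0.099 and 0.153). PRDX4 lost it whichever array was left out (0.0719 to 0.267). PRDX4 lost it also with quantile normalization (0.0516), cyclic loess (0.06) or a constant of 1 (0.0913). With the mean of its probe sets TXNRD1 had a log2 change of 0.19 and was not called, and MSRA was at -0.29; MSRA was not called without a brightness filter (0.0628).

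Of 12 thioredoxin-like and glutaredoxin genes 1 rose, GLRX, which uses glutathione to reduce proteins, from 623 ± 29.1 to 871 ± 1.46 (log2 change 0.47 ± 0.09 SE, adjusted p = 0.0111). The call of GLRX was lost without labelled double knockdown replicate 1 or 2, while its log2 change was 0.475 and 0.472. None of the 6 tested genes with another arrestin fold was called by limma (1 had an unadjusted p under 0.05), beta-arrestin gene ARRB1 among them at a log2 change of 0.01 ± 0.09 SE. Likewise none of 6 partners and cargo of ARRDC proteins was called by limma (3 had an unadjusted p under 0.05), with the vesicle-budding gene TSG101 at 0.17 ± 0.09 SE and ITGB4 at -0.37 ± 0.14 SE.

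The NEDD4-type ubiquitin ligases bind the PPxY motifs of alpha-arrestins. Of 9 tested, 2 were called higher and 1 lower, where 9.40% and 6.59% of all genes were. NEDD4 fell from 385 ± 18.9 to 196 ± 17.1 (log2 change -0.92 ± 0.10 SE, adjusted p = 0.00103). NEDD4L rose from 204 ± 6.87 to 311 ± 17.0 (log2 change 0.57 ± 0.09 SE, adjusted p = 0.00623). ITCH, the ligase known to direct TXNIP protein to degradation, rose from 189.5 ± 7.07 to 258 ± 10.9 (log2 change 0.42 ± 0.09 SE, adjusted p = 0.0177). The call of NEDD4 held whichever array was left out. NEDD4L lost it without labelled double knockdown replicate 2 (0.0803), and ITCH without control replicate 1 (0.0547), labelled double knockdown replicate 1 (0.153) or replicate 2 (0.111). With the mean of their probe sets NEDD4L was at 0.32 and ITCH at 0.27, and NEDD4L was not called without probe sets that match several transcripts (0.0543).

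In the MLX and MAX network, transcription factors that share E-box motifs, 1 of 11 rose and 1 fell. MLX, the partner of MondoA, was at 539 ± 11.4 and 621 ± 22.8 and was not called (log2 change 0.20 ± 0.09 SE, adjusted p = 0.166). MLXIPL, which encodes the related factor ChREBP, was dim (25.9 ± 3.66 and 25.7 ± 1.31). MXD1, a MYC antagonist, rose from 30.8 ± 10.2 to 77.4 ± 11.5 (log2 change 1.01 ± 0.15 SE, adjusted p = 0.0058). It was at 0.58 with the constant of 64 and 0.63 with the mean of its probe sets. Its control arrays read only 38.0 and 23.6. MYCL fell from 34.6 ± 2.32 to 21.5 ± 3.50 (log2 change -0.43 ± 0.10 SE, adjusted p = 0.0242). Its call was lost without control replicate 2 (0.0678), labelled double knockdown replicate 1 (0.0651) or replicate 2 (0.22), and its log2 change was -0.67 with a constant of 1, -0.21 with 64 and -0.16 with the mean of its probe sets. The last of these and the constant of 64 ended the call, as did having no brightness filter (0.0549). MYCL read 24.0 and 19.1 on the knockdown arrays, near the level of the leukocyte marker ITGAM (22.0 and 22.5). Neither MXD1 nor MYCL was bright enough to be tested at a stricter minimum of 58.4.

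Among 12 genes of glucose entry and its first steps, PFKFB3 rose and PFKFB2 fell; both make or break down the activator of phosphofructokinase. PFKFB3 went from 68.9 ± 7.78 to 114 ± 7.74 (log2 change 0.62 ± 0.10 SE, adjusted p = 0.00703) and PFKFB2 from 55.4 ± 6.83 to 38.4 ± 4.37 (-0.39 ± 0.11 SE, adjusted p = 0.0428). PFKFB3 was not called without labelled double knockdown replicate 1 (0.0672), and PFKFB2 not without control replicate 1 (0.138), labelled double knockdown replicate 1 (0.109) or replicate 2 (0.298). PFKFB2 also moved with the scale, at -0.52 with a constant of 1, -0.22 with 64 and -0.14 with the mean of its probe sets. It was called under none of these nor without a brightness filter (0.0915). It was too dim to be tested at a stricter minimum of 58.4. SLC2A1, the glucose transporter GLUT1 that TXNIP can draw from the cell surface, read 192 and 144 on the control arrays and 171 and 169 on the knockdown arrays (log2 change 0.03 ± 0.13 SE).

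Of 11 genes known as carbohydrate-response targets, not counting TXNIP and ARRDC4, 1 was called. BHLHE40, a repressor linked to the circadian clock, rose from 239 ± 68.1 to 389 ± 18.3 (log2 change 0.69 ± 0.16 SE, adjusted p = 0.028), and the call was lost without labelled double knockdown replicate 1 (0.0965) or 2 (0.16). The log2 change of BHLHE40 was 0.42 without control replicate 2 and 0.97 without control replicate 1. The call was lost as well with a constant of 1 (0.0534) or 64 (0.0555), without a brightness filter (0.112) and with the mean of its probe sets (0.0589). FASN, the fatty acid synthase, had the most negative value of that list (log2 change -0.57 ± 0.18 SE, adjusted p = 0.0733), with control arrays at 423 and 267 and the others at 226 and 219.

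Of 11 TXNIP partners and regulators, 5 were called higher and 1 lower, where 9.40% and 6.59% of all genes were. This list too was drawn up with earlier results of these data known, so nothing is read from its counts. EIF2AK3, the endoplasmic reticulum stress kinase PERK, rose from 93.1 ± 1.02 to 233 ± 21.7 (log2 change 1.19 ± 0.09 SE, adjusted p = 0.000305). IL1B, the interleukin whose maturation TXNIP can promote through the inflammasome, rose from 541 ± 65.01 to 1206 ± 15.5 (log2 change 1.14 ± 0.10 SE, adjusted p = 0.00055). DDIT4, a stress-induced inhibitor of mTORC1 that TXNIP binds, rose from 3106 ± 351 to 4940 ± 395 (log2 change 0.67 ± 0.11 SE, adjusted p = 0.00725). FOXO1, a forkhead transcription factor, fell from 92.8 ± 5.75 to 62.3 ± 0.683 (log2 change -0.47 ± 0.09 SE, adjusted p = 0.0116).

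EIF2AK3 and IL1B kept their calls whichever array was left out, although EIF2AK3 was at 0.58 with the mean of its probe sets. FOXO1 was at -0.31 with the constant of 64. DDIT4 lost its call without labelled double knockdown replicate 1 (0.0652), and FOXO1 without labelled double knockdown replicate 1 (0.087) or 2 (0.111). The other calls of that list, ERN1 (log2 change 0.36 ± 0.09 SE, adjusted p = 0.0416) and CDKN1B (0.35 ± 0.09 SE, adjusted p = 0.0319), are named to complete the count. Whether these calls hold with an array left out or under other settings was not examined. ERN1 encodes the stress sensor IRE1, known to raise TXNIP transcript by degrading a microRNA. MAP3K5, the kinase ASK1 that thioredoxin inhibits, had a log2 change of -0.11 ± 0.08 SE and was not called.

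**Figure D4:**
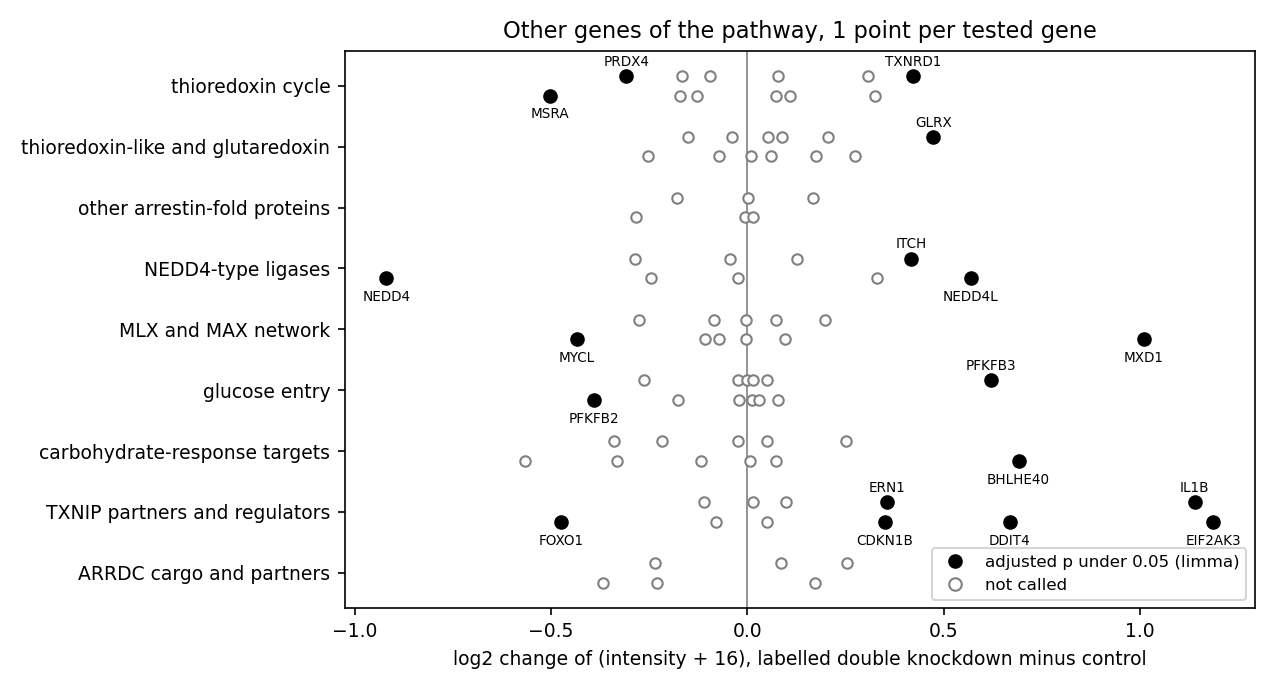
Log2 change of intensity + 16, labelled double knockdown minus control, for each tested gene of the 9 pathway lists. Filled points are genes called at an adjusted p under 0.05 by limma and open points are not called. Calls lie on both sides of 0 in the thioredoxin cycle, ligase, network and glucose lists. Among TXNIP partners and regulators 5 of the 6 are to the right. All lists were drawn up with earlier results of these data known.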

How the data were processed

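RNA of MCF10A cells on 4 arrays, 2 per group, was analysed from the series' value table. The deposited values were read, from their range, as linear intensity, which the authors obtained by steps not given in the sources used here. Of 54675 probe sets, 41091 named 1 gene. Symbols were updated through RefSeq gene identifiers (GRCh38.p14). Values were taken as log2(intensity + 16) with no further normalization, and probe sets with a mean under 14.6 were left out of tests.

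With no covariate, limma 3.58.1 (R 4.3.3) was fitted by lmFit and eBayes, two-sided, across all genes, each on its brightest probe set, and across probe sets, with Benjamini-Hochberg adjustment. The members, lists and rules were chosen with earlier results of these data known. Of each list, up to 4 called genes with the smallest p were named. Others named outside this rule (MLX, MLXIPL, SLC2A1, FASN, ARRB1, TSG101, ITGB4, MAP3K5, ERN1, CDKN1B) were picked after their values were seen. Motifs were matched as letters on both strands. Alternatives were other normalizations, constants, brightness filters and probe set rules, a prior variance with a trend, the sample number as a block, and leaving out each array.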

Additional observations from a re-analysis of the deposited data

How the results depend on the processing

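The members were chosen from this contrast, so their values under the alternatives are a description and show no stability. Without probe sets that match several transcripts TXNIP had no value. The log2 change of TXNIP was -1.87 with the mean of its probe sets and lay between -1.65 and -1.50 with 1 array left out. Genes called numbered 2074, and 454 to 2037 with 1 array left out, lowest without labelled double knockdown replicate 2 (647 without replicate 1 of that group). Probe sets called numbered 3134, against 1647 without a brightness filter and 1898 without probe sets of several transcripts, where fewer were tested, and 166 to 3081 with 1 array left out. Pathway genes called numbered 18, and 5 to 22 with 1 array left out. The same sample numbers occur in both groups, but no label says that they pair the arrays, and same-numbered deviations correlated at 0.24 across genes. With the number as a block, 2505 genes, 3364 probe sets and 21 pathway genes were called. The cause of these shifts was not tested. Values of TXN and MLXIP changed sign between alternatives.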
